A study of Macaca fascicularis with 605 samples.

Results

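Endoderm of the cynomolgus monkey embryo was compared before and after implantation, in single cells chosen by expression rules. The post-implantation endoderm cells came from embryonic days E13 to E20. They had POU5F1 under 50 RPM, an endoderm score of at least 4 and an endoderm score above the mesenchyme score. RPM scales the reads of a gene to the mapped reads of its cell. The endoderm score is the mean log2(RPM + 1) of APOA1, TTR, FOXA1 and APOB, and the mesenchyme score is that of COL1A2, COL3A1, COL6A3 and LOX. The pre-implantation hypoblast cells came from E07 to E09 and had GATA4 and APOA1 of at least 50 RPM and SOX2 under 20 RPM. The rules picked 67 of 605 cells. Of these, 42 were pre-implantation (6 from E07, 32 from E08 and 4 from E09) and 25 post-implantation (16 from E13 and 9 from E16). None of the 39 cells of E14, the 56 of E17 or the 5 of E20 met the rule, so the post-implantation group is E13 and E16.

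The series measured transcripts by SC3-seq, a method that sequences only the 3-prime end of each cDNA, so that levels are compared between days and not between genes, in embryos, embryonic stem cells and germ cell-like cells. All cells used here carry the label cynomolgus embryo with a day. The labels give no strain, genotype, sex, treatment or parent animal, and do not say how many embryos a day holds. Whole pre-implantation embryos were dissociated, whereas post-implantation cells came from a hand-dissected piece with epiblast, amnion, hypoblast and yolk sac endoderm, so stage and handling cannot be told apart.

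The hypoblast, or primitive endoderm, is the layer that forms beneath the epiblast in the late blastocyst. After implantation it lines the blastocoel and gives rise to visceral and parietal endoderm and then to the yolk sac, whose mature endoderm makes apolipoproteins, alpha-fetoprotein and other serum proteins before the liver does. Its part under the anterior epiblast secretes inhibitors of WNT, NODAL and BMP signals, among them CER1, LEFTY1, DKK1 and NOG, and hypoblast cells lay down the basement membrane between the layers.

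The day was taken as the unit, since cells of a day are not replicates of a stage. RPM was averaged over the member cells of each day, giving 3 pre-implantation and 2 post-implantation units, and p-values measure only the spread between these days. Cells of both stages carried a median of 7687 (E13) to 10296 (E09) genes above 0 RPM. The day medians were 9179 at E16, 10120 at E07 and 10078 at E08, so both post-implantation days lay below all pre-implantation days (exact permutation test over days, two-sided p = 0.2, the smallest this design allows). Read depth could be recovered in 62 of the 67 cells and ran from 1507295 to 9360065 reads per cell before implantation and from 821430 to 8067601 after it, with day medians that overlapped (exact permutation test, two-sided p = 0.6).

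The genes of the rules describe the cells and were not tested. APOA1, the main protein of high-density lipoprotein, had day means of 907 RPM at E07, 3885 at E08, 8111 at E09, 1976 at E13 and 3016 at E16. GATA4, a transcription factor of early endoderm, had day means of 268, 222 and 230.8 RPM before implantation and 381 and 288 RPM after it. Both genes were thus present at every day, although the post-implantation rule did not ask for GATA4. FOXA1, a pioneer factor of endoderm, was at 0 RPM in 34 of the 42 pre-implantation cells, with a highest value of 43.4 RPM, and ran from 37.6 to 706 RPM (median 165.5) in the 25 post-implantation cells. TTR, the carrier of thyroid hormone and retinol-binding protein, was at 50 RPM or more in 2 of 42 pre-implantation cells and 17 of 25 post-implantation cells. POU5F1 was not limited in the pre-implantation rule, and its median was 100.95 RPM there (4.23 to 279 RPM) and 0.470 RPM in the post-implantation cells, whose rule bars 50 RPM. COL1A2, which the post-implantation score sets against the endoderm genes, had day means of 635 RPM at E07, 142.6 at E08, 18.2 at E09, 1.25 at E13 and 0.561 at E16.

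The lowest endoderm score among the post-implantation cells was 4.10, and the highest among the 5 cells that failed only by this score was 3.79. Their highest POU5F1 was 35.2 RPM, against a lowest of 73.1 RPM in the 7 cells that failed by POU5F1 alone. Before implantation, the lowest GATA4 inside was 59.5 RPM and the highest in the 10 cells that lacked only GATA4 was 1.80 RPM. The highest SOX2 inside was 17.3 RPM, against a lowest of 43.8 RPM in the 4 cells with more SOX2. The rules are not alike: 21 of the 25 post-implantation cells met the pre-implantation rule, but only 2 of the 42 pre-implantation cells met the post-implantation rule.

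The name yolk sac endoderm held only in part. LGR5, a receptor for R-spondin, had day means of 27, 29.4 and 29.4 RPM before implantation and 1474 and 798 RPM after it, and was at 50 RPM or more in 21 of 25 post-implantation cells. FABP1, a fatty acid carrier of liver and gut, was at 50 RPM or more in 5 of them, all from E16, AFP (alpha-fetoprotein) in 5 and APOB in 4. ALB, TF and SERPINA1, which mature yolk sac endoderm makes in quantity, reached 50 RPM in no cell of either stage. FZD5, LHX1 and OTX2, genes of anterior hypoblast, reached 50 RPM in 21, 22 and 21 of the 25 cells. Other genes of that list did so in fewer cells: GSC in 16, CER1, HHEX and DKK1 in 14 each, LEFTY1 in 13, SHISA2 in 12, NOG in 11 and HESX1 in 1. The cells are therefore called post-implantation endoderm cells here. The pre-implantation cells carried the hypoblast genes that their rule did not use: GATA6 reached 50 RPM in 42 of 42 cells, SOX17 in 39 and PDGFRA in 40.

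**Figure D1:**
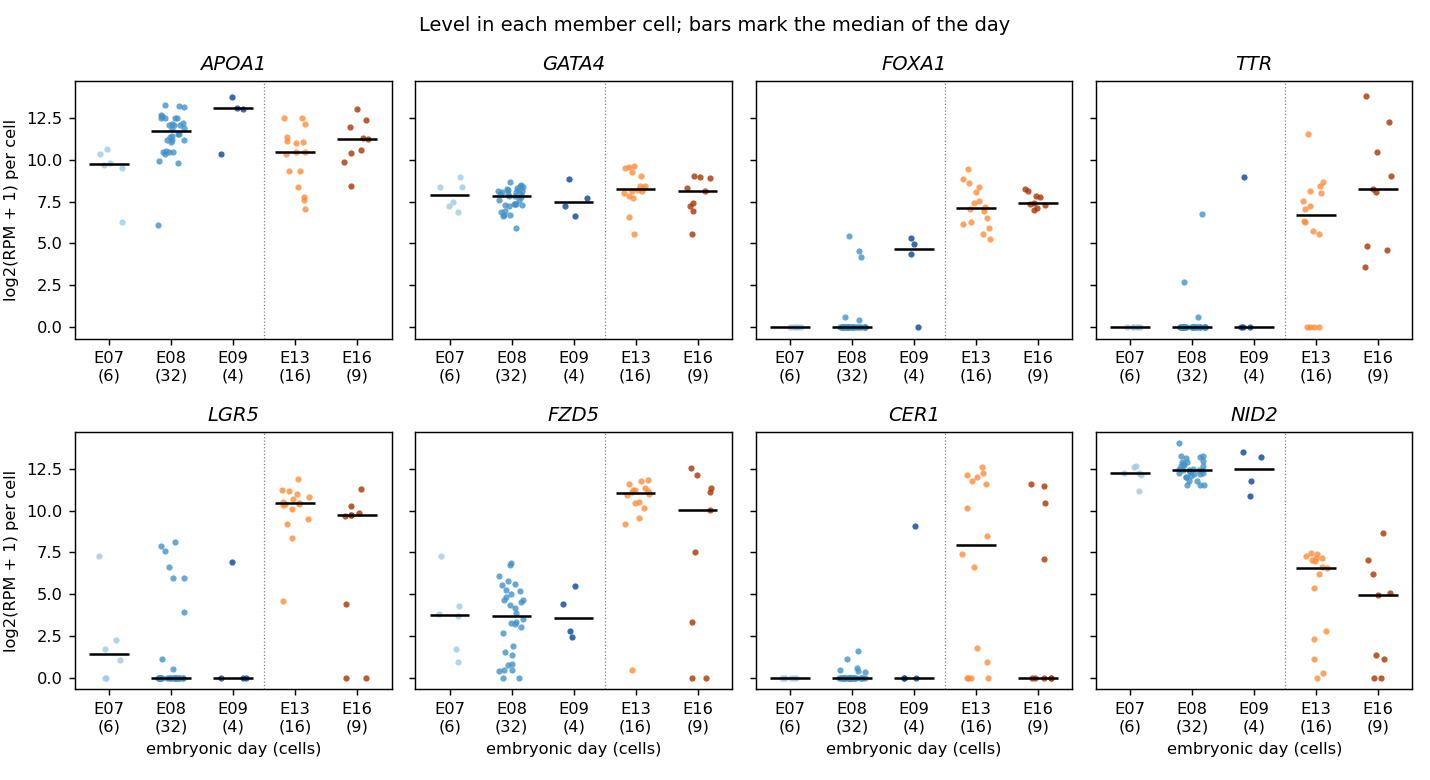
Level of 8 genes in each of the 67 member cells by embryonic day, as log2(RPM + 1), with bars at the day medians and the number of cells in brackets. APOA1 and GATA4 were present at all days, and FOXA1, TTR and LGR5 were high after implantation. Of these, APOA1, GATA4, FOXA1 and TTR are rule genes, so their levels follow in part from the choice of cells. NID2 was at 1844 RPM or more in all 42 cells before implantation and at most 399 RPM after it. CER1 separated the cells of E13 and of E16 into cells near 0 and cells above 50 RPM.

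Some member cells carried genes of other cell types. A pre-implantation cell (E09 cell 13) held 3513 RPM of CGA, a placental hormone subunit, and had 7 of 12 trophectoderm genes at 50 RPM or more. Another (E09 cell 9) stood apart by genes of the endoderm lists or score. It held CER1 (531 RPM), LHX1 (466.1 RPM), TTR (505 RPM) and VIM (419 RPM), and supplied all CER1 of its day. After implantation, SOX2 exceeded 100 RPM in 2 cells (E13 cell 4 with 127.3 RPM and E16 cell 5 with 155.8 RPM), and CDH5, an endothelial cadherin, was 334 RPM in E13 cell 7. In all, 10 of the 67 cells (3 before and 7 after implantation) had at least 3 genes of a trophectoderm, amnion, extraembryonic mesenchyme or endothelium list at 50 RPM. Against 1119 genes that differed between the stages with all cells, 969 did without the 3 cells with SOX2 or CDH5. Leaving out the 10 cells left only 2 at E09, so that day dropped out as well, and 1109 genes differed (843 of them among the 1119), against 1468 without E09 alone.

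After implantation the cells had less of both nidogens (NID1 and NID2), of SPARC and of the laminin chains LAMA1 and LAMC1, and more of FZD5, of the antagonists CER1, DKK1, NOG and SFRP1 and of NODAL. A gene entered the limma test on log2(mean RPM + 1) when 2 or more days reached 10 RPM, and the rule genes and markers stayed out. Of 9027 genes tested, 718 were higher and 401 lower after implantation at an adjusted p under 0.05 (Benjamini-Hochberg), which is 12.4% of those tested in either direction, 7.95% higher and 4.44% lower. The median difference of all genes was 0.11 on the log2 scale. Of the genes tested, 983 entered through the days of 1 stage only, that is, no day of the other stage reached 10 RPM. Such genes had to be high in 1 stage to be tested at all, so their p-values are no independent support. Of the other 8044 genes, 347 were higher and 276 lower.

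The balance of higher and lower genes depended on how the cells of a day were summarised. With means, 64.2% of the called genes were higher after implantation. With the mean of log2 values it was 19.5% (348 higher and 1436 lower) and with the median over cells 25%, with all genes shifted by -0.81 and -0.59, while quantile normalization gave 53.9%. The count rested on both post-implantation days. Without E13 there were 4 higher and 33 lower genes, and without E16 4 higher and 39 lower, in fits where the lone day is taken to vary like the others. Without E08 there were 592, of which 75.7% were higher.

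The largest rises were in genes that were at or near 0 before implantation. PDYN, the precursor of dynorphin peptides, was listed at 0 RPM in all 42 pre-implantation cells and had day means of 399 RPM at E13 and 314 at E16. VLDLR, a receptor for apolipoprotein E-rich lipoproteins and reelin, was likewise at 0 RPM in all 42 and then at 354 and 278 RPM. In 19 and 20 of the 25 post-implantation cells these genes were at 50 RPM or more. CTHRC1, a secreted modulator of WNT signalling, had day means of 0, 0.598 and 0 RPM before implantation and 388 and 358 RPM after it. KLHL14, DACT2 (an intracellular modulator of WNT and NODAL signals), ITM2A, CACNA2D1 and C4H6orf163 were at most 2.57 RPM on each pre-implantation day and between 161.5 and 476 RPM on the post-implantation days. The log2 differences of these genes, 8.47 (SE 0.58) for PDYN, 8.30 for VLDLR, 8.35 for KLHL14 and 8.32 for CTHRC1, depend on the pseudocount of 1 because the lower stage was near 0. All of the genes in this paragraph had entered through the post-implantation days alone, so their values are a description.

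NID2, a nidogen that links laminin to type IV collagen, had day means of 4855, 6149 and 6604 RPM at E07, E08 and E09 and 84.2 and 74.4 RPM at E13 and E16. The days did not overlap, nor did the cells, whose lowest value before implantation was 1844 RPM and highest after it 399 RPM. The fall was 6.18 on the log2 scale (-6.18, SE 0.29, limma adjusted p = 0.000106), and within the cells whose titles carry the code MS133 (23 before and 4 after implantation), it was -6.72. Day means of 46.2% of all tested genes did not overlap between the stages.

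Among the other large falls, IQGAP2, a scaffold of the actin cytoskeleton, went from day means of 159.2, 261 and 187.4 RPM to 0.102 and 0.127 RPM (-7.48, SE 0.48). It was at 10 RPM or more in all 42 pre-implantation cells and in none of the 25 post-implantation cells. MOGAT2, which makes diacylglycerol for fat absorption in the gut, was at 104.1, 132.5 and 168.8 RPM and then at 0 and 0.0456 RPM. KLF4, a transcription factor of the naive pluripotent state, was at 617, 421 and 52.6 RPM and then at 4.26 and 0.127 RPM. S100P was at 381, 287 and 1890 RPM before and at 0.863 and 9.68 RPM after implantation. FUT4, which makes the SSEA-1 carbohydrate, was at 213.5 to 310 RPM before and at 4.81 and 3.27 RPM after it. HSPB8, NEFL, CD53, CLCA1 and NMI completed the genes with the largest falls, with log2 differences between -6.11 and -5.81. NEFL and CLCA1 were already lower at E09 (10.6 and 22.5 RPM) than at E07 (183 and 358 RPM). In epiblast cells of the same days S100P (-8.96), CD53 (-6.95), KLF4 (-5.05) and NMI (-4.93) fell as well, so these falls were not particular to endoderm. The other genes of this paragraph changed there by between -2.33 (FUT4) and -0.38 (IQGAP2). All genes of this paragraph had entered through the pre-implantation days alone.

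**Figure D2:**
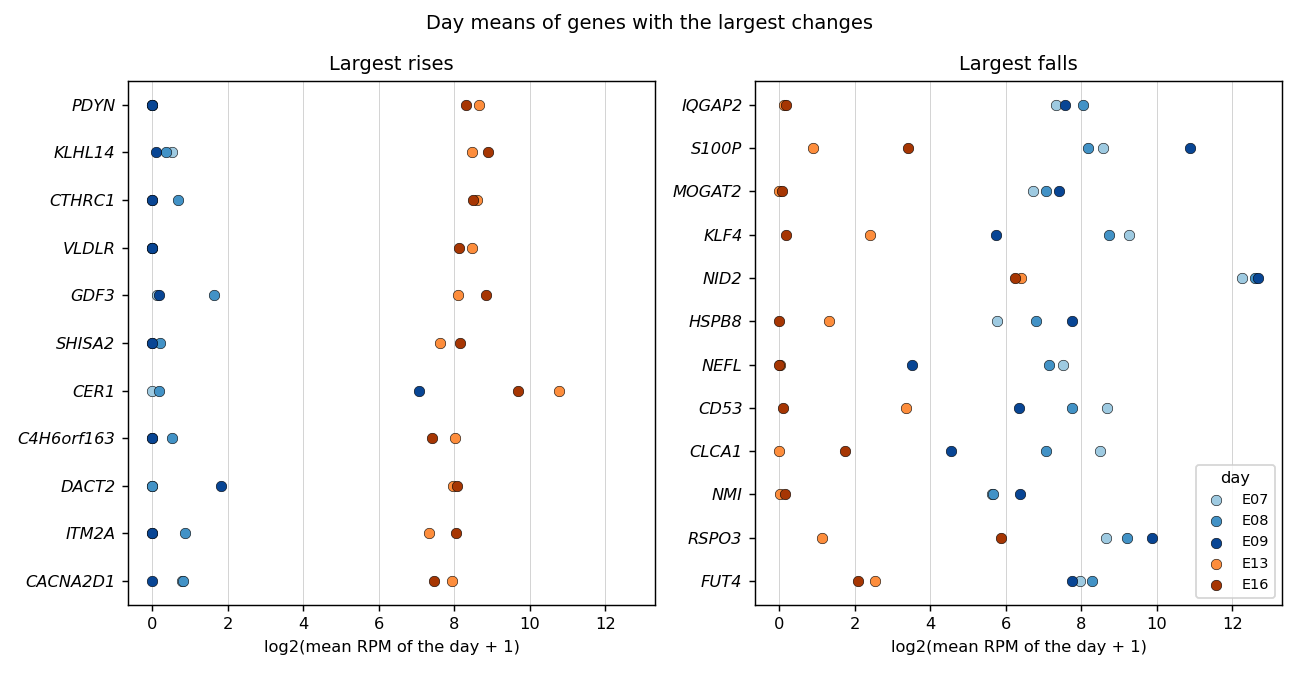
Mean of the member cells of each day, as log2(mean RPM + 1), for 11 of the 12 genes with the largest rise and the 12 with the largest fall. Blue points are pre-implantation days and orange points post-implantation days. The 5 day means of a gene do not overlap between the stages because this was a condition for naming it. Among all tested genes 46.2% met this condition. CER1 at E09 (132.8 RPM) and RSPO3 at E16 (57.3 RPM) lie towards the other stage.

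Most genes of the anterior hypoblast list were higher after implantation. Of 12 genes listed, 11 were tested, and 7 were higher and none lower (7.95% and 4.44% over all genes tested), while 4 were not called. The median log2 difference was 5.14 against 0.11 for all genes. Of the 11, SHISA2 and NOG had entered through the post-implantation days alone. FZD5, a WNT receptor, had day means of 33.4, 23.2 and 18.3 RPM before implantation and 1960 and 1819 RPM after it (6.22, SE 0.34, limma adjusted p = 0.00018). The pre-implantation cells reached at most 154.2 RPM, and 21 of the 25 post-implantation cells were at 182 RPM or more. SHISA2, which holds WNT and FGF receptors inside the cell, was at 0, 0.156 and 0 RPM and then at 197 and 283 RPM (7.82, SE 0.61), and it was at 50 RPM or more in 12 of the 25 cells.

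CER1, a secreted antagonist of NODAL, BMP and WNT, had day means of 0, 0.144 and 132.8 RPM before implantation and 1746 and 823 RPM after it (7.81, SE 1.84, limma adjusted p = 0.0285). All of the E09 mean came from the single cell named above. The other called members were DKK1, a WNT antagonist (5.93, SE 1.21, limma adjusted p = 0.0169), NOG, a BMP antagonist (5.53), HHEX (5.00) and OTX2 (2.72), the last of which already stood at 119.2 RPM at E07. LHX1 had day means of 0.0333 RPM at E07, 35.4 at E08, 116.5 at E09, 347 at E13 and 965 at E16. It did not pass the test (5.14, SE 1.65, limma adjusted p = 0.0775). Only 3 of the 42 pre-implantation cells reached 50 RPM of LHX1, and all of its E09 mean came from the same single cell as CER1. LEFTY1, a NODAL antagonist, was at 648, 197 and 18 RPM before and 1270 and 447 RPM after implantation, so the days overlapped (adjusted p = 0.22). With edgeR on the recovered reads 2 members of the list were higher, and with the median over cells 3. Leaving out E13 or E16 left 1 in either case.

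The basement membrane list split by gene. Of 18 genes listed, 15 were tested, 5 were lower and 3 higher (4.44% and 7.95% over all genes tested), and 7 were not called. The median was -1.07, and 3 had entered through 1 stage only. NID1, the second nidogen, went from 509, 668 and 847 RPM to 32.1 and 20.9 RPM (-4.62, SE 0.34, limma adjusted p = 0.000413). SPARC, a collagen-binding matrix protein of parietal endoderm, went from 1123, 2107 and 5692 RPM to 146.7 and 139.5 RPM (-4.05, SE 0.59, adjusted p = 0.0065). The laminin chains LAMA1 (-2.14) and LAMC1 (-1.89) fell too, whereas LAMB1 (-1.07, adjusted p = 0.1) and the type IV collagen COL4A1 (-1.73, adjusted p = 0.0832) did not pass. The rare chains COL4A5 and COL4A6 went the other way, from at most 4.07 RPM to between 37.9 and 44.9 RPM. Both had entered through the post-implantation days alone, so their values are a description. FN1 (fibronectin) rose from 3019, 3872 and 4555 RPM to 7932 and 21614 RPM (1.80, SE 0.49, adjusted p = 0.046), a call that was lost without any of E07, E08, E13 and E16 and under the stricter rule (endoderm score of at least 6 after implantation, GATA4 and APOA1 of at least 100 RPM before it). The 5 lower genes were also 5 by edgeR, by the stricter rule and without the cells of other types. Without E13 or without E16, 2 were lower and none higher.

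Some retinoid handling genes were higher after implantation. Of 14 genes listed, 8 were tested, 4 were higher and none lower (7.95% and 4.44% over all genes tested), with a median of 3.80. Of the 8, 4 had entered through 1 stage only, CRABP2 and STRA6 among them. CRABP2, an intracellular carrier of retinoic acid, rose from 0, 0.895 and 0.680 RPM to 223.9 and 189 RPM (7.13, SE 0.62). CRABP2 was at 10 RPM or more in 25 of 25 post-implantation cells and in 2 of 42 pre-implantation cells. STRA6, the receptor for retinol-binding protein, was at most 0.818 RPM before and at 110 and 109.5 RPM after implantation (6.45, SE 0.65). CYP26A1, which degrades retinoic acid, was at 0, 19.2 and 33 RPM and then at 520 and 409 RPM (5.71, SE 1.28, limma adjusted p = 0.024). Of the enzymes that make retinoic acid, ALDH1A2 and ALDH1A3 were under 0.1 RPM on every day and ALDH1A1 was not called (-1.21, adjusted p = 0.24).

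**Figure D3:**
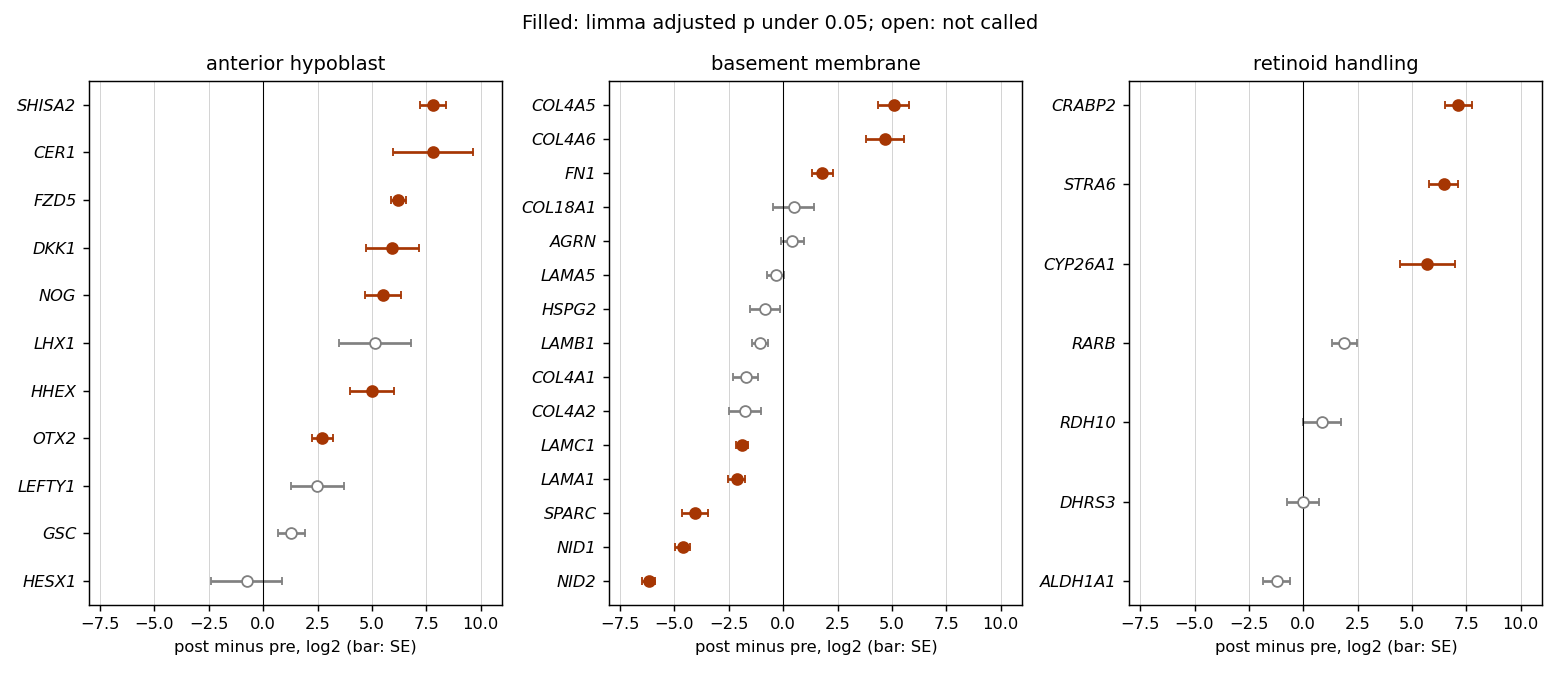
Difference between post-implantation and pre-implantation days on the log2 scale, with its standard error, for tested genes of the anterior hypoblast (11), basement membrane (15) and retinoid handling (7 of 8) lists. Filled points passed the test (7 higher in the first list, 5 lower and 3 higher in the second and 3 of those shown in the third) and open points did not.

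Of 26 genes of the WNT pathway listed, 14 were tested, 8 were higher and 1 lower (7.95% and 4.44% over all genes tested). The median was 2.70, and 5 had entered through 1 stage only. The higher genes were the receptors FZD7 (52.4, 65.9 and 53.4 RPM, then 633 and 253 RPM) and FZD8, the R-spondin receptor LGR4 (179, 308 and 206.5 RPM, then 930 and 729 RPM), the ligand WNT5A, the antagonist SFRP1 and the target or effector genes SP5, LEF1 and TCF7. SFRP1 showed the largest change, from 2.84, 2.15 and 16.5 RPM to 427 and 462 RPM (6.23, SE 0.73, limma adjusted p = 0.003). SFRP1 rose by 6.18 in epiblast cells of the same days too, so this rise was not particular to endoderm. TCF7 was called over all cells (2.62) but differed by -0.07 within code MS133. AXIN2, a general target of the pathway, was not called (0.93, adjusted p = 0.2). With edgeR 7 genes of the list were higher.

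RSPO3, a ligand of LGR4 and LGR5, was the single WNT gene that fell. Its day means were 404, 587 and 938 RPM at E07, E08 and E09, 1.21 RPM at E13 and 57.3 RPM at E16 (-5.74, SE 1.12, limma adjusted p = 0.0146). It was at 50 RPM or more in 37 of 42 pre-implantation cells and in 4 post-implantation cells, all from E16. RSPO3 was thus low on the days when LGR4 and LGR5 were high. The call was lost with edgeR and without E13.

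Among BMP and NODAL genes, 15 of 19 were tested, 6 were higher and 2 lower (7.95% and 4.44% over all genes tested). The median was 1.88, and 3 had entered through 1 stage only, GDF3 and ID4 among them. NODAL went from 20.8, 3.41 and 18.5 RPM to 218.4 and 405 RPM (4.60, SE 0.71, limma adjusted p = 0.0075). Its co-receptor TDGF1 went from 63.3, 85.2 and 74.9 RPM to 275 and 542 RPM (2.37). GDF3, a NODAL-related ligand, was at most 2.12 RPM and then 276 and 460 RPM (7.83, SE 0.68), and the receptor ACVR2A rose by 1.51. The BMP targets ID3 (2.27) and ID4 (6.02) were higher, the ligand BMP6 went from 175, 270 and 274 RPM to 16.9 and 58.8 RPM (-2.85), and BMP2 was not called (-0.83). Of the FGF and PDGF list 12 of 17 were tested and 1 was called (12.4% over all genes tested). It was FGF17 (5.80), which had entered through the post-implantation days alone. PDGFRA differed by less than its spread between days (-0.10, limma adjusted p = 0.905).

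Of 20 transcription factors of endoderm listed, 13 were tested and 2 were called, a share near the 12.4% of all genes. Both were lower, GATA6 (1092, 1019 and 784 RPM, then 253 and 390 RPM, -1.60, SE 0.31, limma adjusted p = 0.0149) and ELF3 (-2.34). SOX17 (333, 344 and 321 RPM, then 519 and 482 RPM, adjusted p = 0.175), FOXA2 and HNF4A did not pass, and EOMES (38.3, 124.2 and 160 RPM, then 378 and 343 RPM) had an adjusted p of 0.0541.

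The tested lipid export genes of visceral endoderm did not pass the test. Of 16 apolipoprotein and lipid export genes, 9 were tested and none was called, with a median of 0.21. APOE was at 358, 183 and 200.7 RPM and then at 467 and 581 RPM (1.14, adjusted p = 0.0723), MTTP, which loads lipid onto apolipoprotein B, did not differ beyond its spread (0.21, adjusted p = 0.8), and APOA2 and APOA4 stayed below the filter. At an unadjusted p under 0.05 the whole test had 2626 genes, and edgeR called none of this list either. Of 16 plasma carrier genes only VTN (vitronectin) was tested, and it rose from 18.1, 11.7 and 66 RPM to 110 and 404 RPM (3.06, SE 0.77, limma adjusted p = 0.0359). It was not called when E07, E08, E13 or E16 was left out. Nor was it called with the mean of log2 values, the median over cells, a pseudocount of 0.1 or no filter. Of 18 coagulation and complement genes, 4 were tested and none called. F2 (prothrombin) was at 31.8, 16.4 and 36.7 RPM and then 65.1 and 147.8 RPM (1.84, adjusted p = 0.0548).

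The endocytosis and absorption list had 16 of 22 genes tested, 3 higher and 2 lower (7.95% and 4.44% over all genes tested), with a median of -0.85. FABP5 went from 7320, 6021 and 9402 RPM to 1210 and 811 RPM (-2.91, SE 0.36, limma adjusted p = 0.0038), and TFRC, the transferrin receptor, from 698, 654 and 1857 RPM to 119.1 and 130.9 RPM (-2.91). SLC2A2, the low-affinity glucose transporter, was listed at 0 RPM on the pre-implantation days and at 26 and 48 RPM after them. It had entered through the post-implantation days alone and was at 10 RPM or more in 4 of 25 post-implantation cells. CTSH and ENPEP rose. CUBN, a visceral endoderm receptor, was below the filter, and its partner LRP2 was not called (-0.80).

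In glycolysis 15 of 18 genes were tested, 1 was higher and 2 lower (7.95% and 4.44% over all genes tested). The glucose transporter SLC2A1 (1050, 1085 and 945 RPM, then 158.5 and 450 RPM) and ENO1 were lower and TPI1 higher. Of the iron and haem list, 8 of 12 were tested and 1 was called, a share near the 12.4% of all genes. It was HMOX1, which was lower (65.8, 38.1 and 51.7 RPM, then 1.43 and 1.05 RPM) and had entered through the pre-implantation days alone. Of the parietal endoderm list, 7 of 11 were tested, 2 were higher and 1 lower (7.95% and 4.44% over all genes tested). VIM rose from 0, 7.53 and 104.8 RPM to 872 and 1090 RPM (6.66, SE 1.53, limma adjusted p = 0.0268) and FLT1 rose, while CTSL fell. The rise of FLT1 was not present within code MS133 (-0.03).

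The markers of other cell types gave these counts, beside 7.95% higher and 4.44% lower over all genes tested. None of the 5 trophectoderm or 3 amnion genes tested was called. Of 5 extraembryonic mesenchyme genes tested 3 were higher, LUM (0, 2.41 and 0.0750 RPM, then 258 and 56.7 RPM), TBX20 and COL1A1. All 3 had entered through the post-implantation days alone, so their values are a description. COL1A1 was at 10 RPM or more in 4 of 25 post-implantation cells. The summed RPM of the extraembryonic mesenchyme list was 3.08 to 1466 in cells of E13 and 7.36 to 309 in cells of E08. POSTN was under 1 RPM on every day, and the part of such RNA in the results was not tested. LUM was not higher within code MS133 (-1.68). Of 2 endothelium and blood genes tested, LMO2 was higher, and it too had entered through the post-implantation days alone. Of 8 epiblast genes tested 3 were lower (NANOG, DPPA4 and L1TD1) and 3 higher (GDF3, TDGF1 and SALL2), in a comparison whose post-implantation rule alone limits POU5F1. NANOG and DPPA4 had entered through the pre-implantation days alone and GDF3 through the post-implantation days alone.

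Changes across implantation were set against those of the epiblast, the pluripotent layer of the embryo. Epiblast cells of the same 5 days (POU5F1 of at least 50 RPM, SOX2 of at least 20 RPM and GATA4 under 20 RPM; 16, 26, 6, 38 and 48 cells from E07 to E16) were averaged in the same way, and the difference between endoderm and epiblast was compared between the stages. The labels do not tie the cells of both kinds to the same embryos, and the codes MS107 and MS118 occur in epiblast cells but in no endoderm cell. Of 10144 genes tested with limma, the change across implantation differed for 230 (2.27%), being higher in endoderm than in epiblast for 1.63% of the genes tested and lower for 0.641%. Of the genes named for this comparison only FZD5 and RSPO3 had reached 10 RPM in endoderm days of both stages. Of the called genes 71.7% were higher, but 42.3% with the mean of log2 values. Of the 1119 genes called between the stages in endoderm, 150 were also called here. Some endoderm rises were found in epiblast too. SFRP1 rose by 6.23 in endoderm and 6.18 in epiblast, ITM2A by 7.40 and 5.11, and VIM by 6.66 and 5.13. CRABP2 rose by 7.13 and 4.63, CTHRC1 by 8.32 and 4.52, and FN1 by 1.80 and 3.11. Other rises were small in epiblast, such as that of DACT2 (7.40 and 0.86). The difference for FZD5 was 8.06 (SE 0.46, limma adjusted p = 0.0075). Its endoderm values are given above, and in epiblast it went from 211.1, 145.4 and 179 RPM to 47.3 and 49.9 RPM. GDF3, also higher in endoderm after implantation, was at 161.3, 164.9 and 181 RPM and then at 151.9 and 83.3 RPM in epiblast (8.41, SE 0.94, limma adjusted p = 0.0187). STRA6 (7.46), PREX1 (7.63), KIAA1324L (6.82), C4H6orf163 (7.49), KLHL14 (7.0) and VWF (6.77) made up the others of the largest higher changes. VWF, the platelet adhesion factor, was at 6.58, 5.22 and 9.17 RPM and then at 43.2 and 21.5 RPM in endoderm (2.01, limma adjusted p = 0.065) and at 174.8, 210.2 and 196 RPM and then at 22.5 and 1.20 RPM in epiblast.

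RSPO3 had the largest change in the other direction (-8.66, SE 1.60, limma adjusted p = 0.0498), since in epiblast it went from at most 1.08 RPM to 3.74 and 21.4 RPM. IQGAP2 (-7.10) and MOGAT2 (-6.41) fell in endoderm and changed by -0.38 and -0.62 in epiblast. LDB2 (-6.25), VAT1L (-5.74), CAV1 (-5.47) and NLGN4X (-5.33) were under 1 RPM in endoderm on every day and higher in epiblast after implantation, where LDB2 went from at most 0.0694 RPM to 85.6 and 71.5 RPM. SLC1A5, a glutamine transporter, was lower in endoderm (55, 74.9 and 22.8 RPM, then 1.20 and 3.76 RPM) and higher in epiblast (23.4, 31.4 and 23.1 RPM, then 84.5 and 122.4 RPM, a difference of -5.79). Without E08, E13 or E16 no gene was called in this comparison, and without E07 3 were, with 1062 to 1601 genes at an unadjusted p under 0.05.

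**Figure D4:**
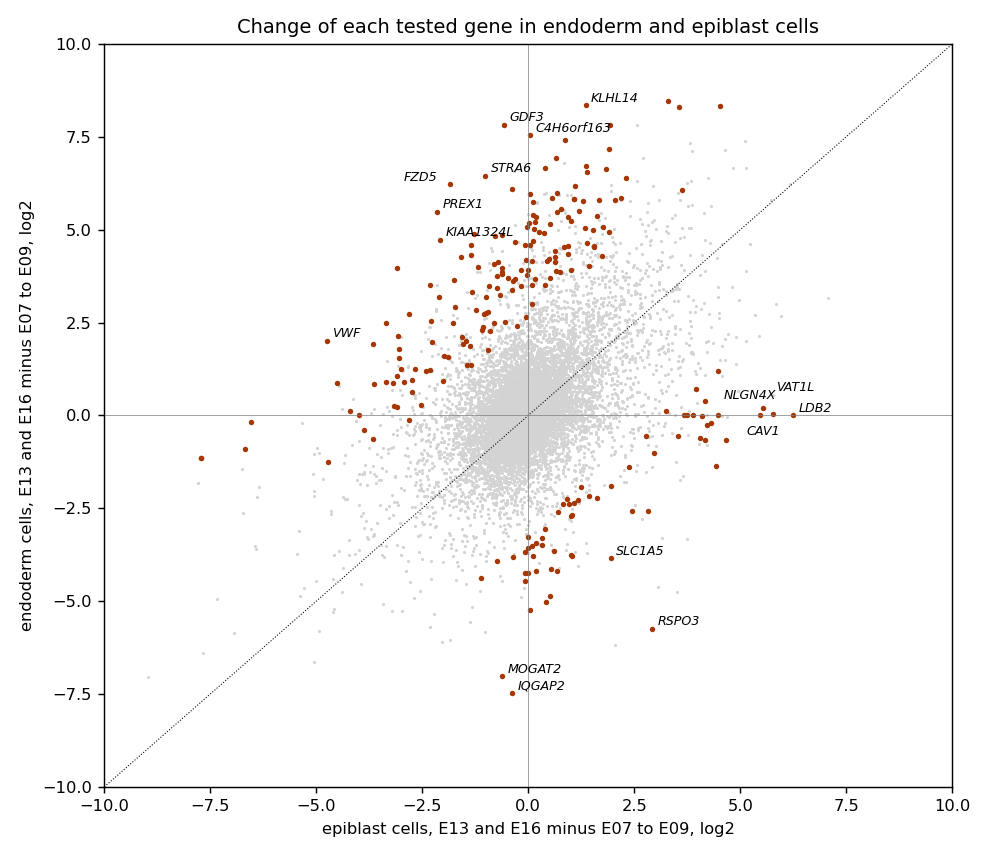
Difference between post-implantation and pre-implantation days on the log2 scale in epiblast cells (horizontal) and in endoderm cells (vertical) for the 10144 tested genes. Coloured points are the 230 genes whose changes differed between the cell types by limma, and the dotted line marks equal change. GDF3, FZD5 and STRA6 lie high on the left, RSPO3 low on the right, and LDB2 and CAV1 far right at no change in endoderm.

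The 25 post-implantation cells were not alike. LGR5 and FZD5 were both at 50 RPM or more in 21 cells and both under it in the other 4. The 4 are a cell of E13 with title code MS133, cells 40 and 41 of E16 and a cell of E16 with code MS132. They were singled out after their values were seen. E16 cell 40 held 4135 RPM of FABP1, 2122 of AFP, 1035 of FGB (fibrinogen beta), 594 of APOB and 187.6 of RSPO3. The E16 cell with code MS132 held 14752 RPM of TTR, 981 of APOB, 467 of AFP and 250 of FABP1. E16 cell 41 held 687 RPM of FABP1 and 165.4 of FGB, and also 2297 of LHX1. The E13 cell held 2945 RPM of TTR and 0 of FABP1, FGB and APOB. FABP1, FGB, AFP and APOB were thus high in few cells, whereas TTR and VTN reached 50 RPM in 17 and 15 of the 25 and APOE in all. FABP1 and FGB were at 50 RPM or more together in 4 cells, FABP1 alone in 1 and FGB alone in none.

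CER1 divided the cells in another way. It was at 50 RPM or more in 14 of 25 cells (10 from E13 and 4 from E16), with a highest value of 6127 RPM, and at 0 RPM in 9. HHEX was at 50 RPM or more in 13 of those 14, and LEFTY1 and SHISA2 in 12 each. Over the 25 cells CER1 ran with LEFTY1 (Spearman rho 0.80) and HHEX (0.74) and against TTR (-0.80), VTN (-0.70) and VIM (-0.56). NOG, on the same anterior hypoblast list, did not run with CER1 (-0.40). CER1 and NOG were at 50 RPM or more together in 4 cells, CER1 alone in 10 and NOG alone in 7. These are descriptions of 25 cells that share days, title codes and differing depth, and TTR is a gene of the score that chose them. GDF3 and VIM ran together (0.73). E13 cell 9, with no CER1, had 479 RPM of GDF3, 471 of NOG, 2605 of VIM and 413 of TTR. E13 cell 4, with the highest CER1, had 0 RPM of GDF3, NOG and TTR and 4.24 of VIM. OTX2 was at 50 RPM or more in all 14 cells with CER1 and in 7 of the 11 without.

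**Figure D5:**
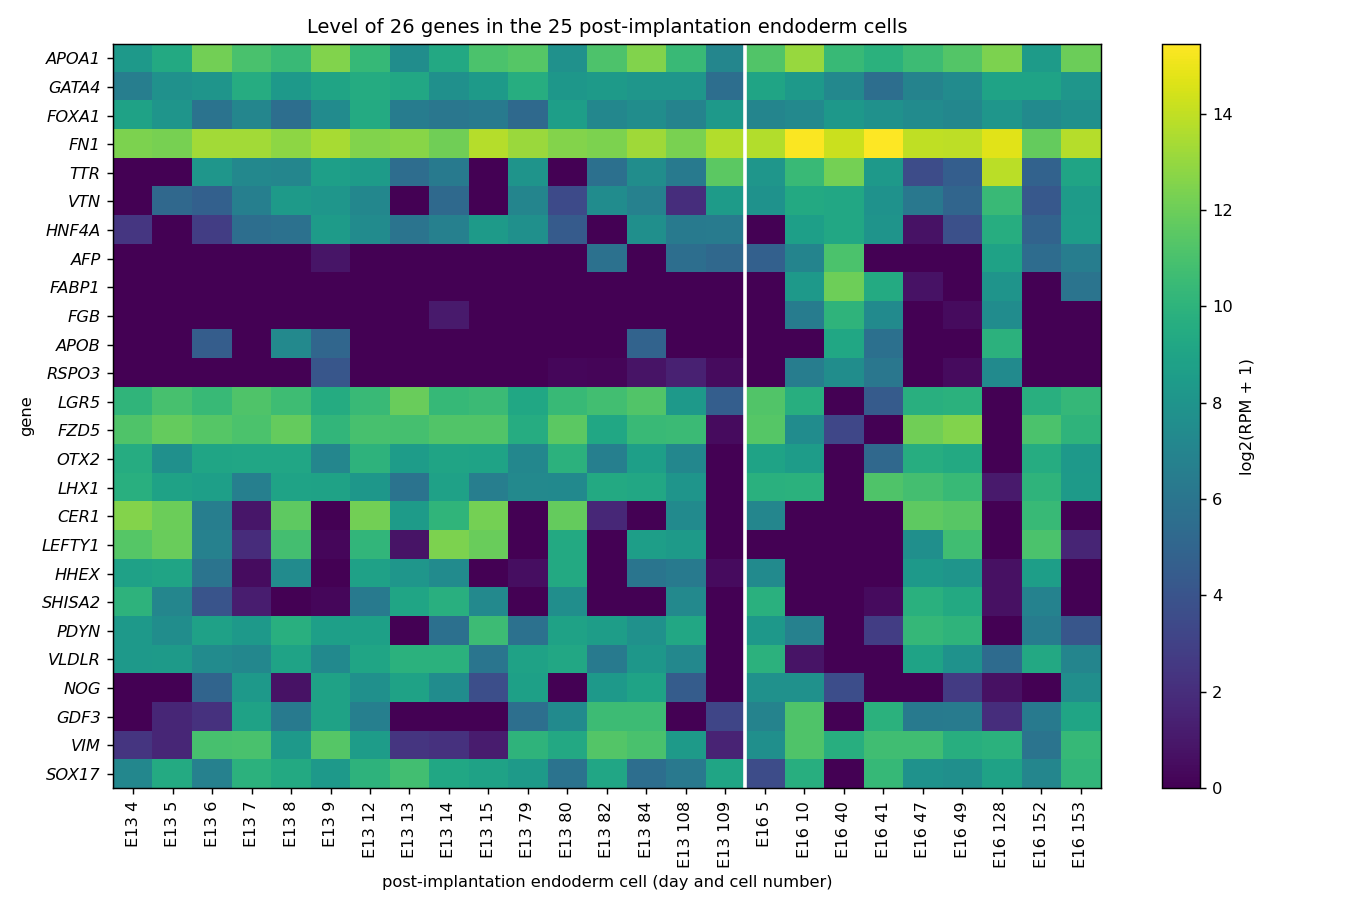
Level of 26 genes, as log2(RPM + 1), in the 25 post-implantation endoderm cells, ordered by day and cell number with a white line between E13 and E16. FN1 was at 3551 RPM or more in every cell. LGR5 and FZD5 are dark in 1 cell of E13 and 3 of E16, where TTR and VTN are bright, and CER1, LEFTY1, HHEX and SHISA2 are bright in the same cells as one another in most cases.

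Between E13 and E16 there was 1 unit per day, so no test was made. Of 9540 genes, 548 (5.74%) were at least 4-fold higher at E16 and 410 (4.3%) at least 4-fold lower, on the scale of log2(mean RPM + 1). Of these 57.2% were higher, and 87.2% with the mean of log2 values. The largest differences upward were in CCK (0.0406 to 315 RPM, in 2 of 9 cells at 10 RPM or more), FGB (0.0744 to 163.4 RPM, 4 cells), TDO2, a liver enzyme of tryptophan breakdown (1.11 to 114.04 RPM, 5 cells), PMEL (0.851 to 67.7 RPM, 8 cells) and AFP (8.66 to 319 RPM, 6 cells). STOM, RSPO3 and SLC7A8 completed them. In CCK, FGB, TDO2 and RSPO3 the difference thus rested on at most 5 of the 9 cells. Most AFP of E16 was in cell 40 (2122 RPM) and the cell with code MS132 (467 RPM), and the other cells held at most 122.3 RPM. The largest differences downward were in TUBB3, a neuronal tubulin (103.7 to 0.0844 RPM), NPY1R, CCL2, LIN28B, a repressor of let-7 miRNAs (51.4 to 1.23 RPM), LONRF1, NR1D2, ST6GALNAC3 and NFASC. NPY1R and CCL2 had 3 and 2 of 16 cells at 10 RPM or more at E13.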

How the data were processed

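The table the authors deposited holds RPM of 26018 genes in 605 cells. Cutadapt 1.3, TopHat 1.4.1 and Cufflinks 2.2.0 are listed, per the submitters' processing notes. A genome build is not given in the sources used here and no position or sequence is printed. Columns were matched to samples by title, and 673 LOC names took RefSeq symbols (20272 IDs matched). Members and gene lists (25 lists) were chosen with earlier results of these data known.

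Days with at least 3 member cells formed units. Tests used limma 3.58.1 (R 4.3.3, eBayes with trend) on log2(mean RPM + 1), with genes at 10 RPM or more in at least 2 units, the rule genes and the markers LGR5 and FABP1 left out, and Benjamini-Hochberg adjustment over all genes. Scripts were tested on simulated data. In 62 member cells 99.8% of values above 0 were whole reads within 0.1 read, and edgeR 4.0.16 (quasi-likelihood) was run on those reads as an alternative. Reads without molecular identifiers are not independent molecules.

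The named genes were the 12 higher and 12 lower genes of largest change that were called, with non-overlapping units, at least 50 RPM in the higher stage and no LOC name (8 each for the other comparisons), up to 4 called genes a direction in each list, and list members that define a role. Some of these genes are not reported here. Single cells and other genes were named after their values were seen. Settings tried were the minimum of cells, pseudocount, filter, summary over cells, normalization, member rule, unit, leaving out each day and leaving out cells with genes of other types.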

Additional observations from a re-analysis of the deposited data

Results flagged for a closer look

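Several values stood apart from the other cells of their day. In all, 20 sets of cells were checked (E07, E09 and E16, for genes per cell and 7 genes on the log2 scale). Sets at 0 in all cells were left out. In 7 sets an extreme cell lay farther from the rest than the 95% limit of Dixon's test. That limit is made for normally distributed values, so with many values at 0 it gives no error rate here. In E09, a single cell of 4 held all LGR5 (117.5 RPM), TTR (505 RPM), CER1 (531 RPM) and VIM (419 RPM). Another cell was the only cell with FABP1 (18.3 RPM). With all other cells at 0, Dixon's ratio is at its maximum whatever the value, so these E09 sets are a description. The sets that share a cell are also not separate events. In E07, LGR5 was 154.7 RPM in the highest of 6 cells and NID2 was 2321 RPM in the lowest.

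The change across implantation differed between endoderm and epiblast in 230 genes by limma (2.27% of those tested). The differences on the log2 scale were 8.41 for GDF3, 8.06 for FZD5, 7.63 for PREX1, 7.49 for C4H6orf163, 7.46 for STRA6, 7.0 for KLHL14, 6.82 for KIAA1324L and 6.77 for VWF. In the other direction they were -8.66 for RSPO3, -7.10 for IQGAP2, -6.41 for MOGAT2, -6.25 for LDB2, -5.79 for SLC1A5, -5.74 for VAT1L, -5.47 for CAV1 and -5.33 for NLGN4X.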

How the results depend on the processing

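Against 1119 called genes, there were 18 with no filter on low values, 1784 with the mean of log2 values, 707 with a 50 RPM filter, 661 under the stricter rule, 450 with edgeR and 37 to 1468 when a day was left out (37 without E13, 43 without E16). Against 230 genes that differed from epiblast, there were 74 and 414 with pseudocounts of 0.1 and 10, 95 with no filter, 409 with the mean of log2 values and 0 to 236 when a day was left out. Between E16 and E13 10.0% of genes were 4-fold apart, and 1.16% with a pseudocount of 10 (62 higher and 49 lower). FOS reversed with the median over cells (-0.77), and FLT1 (-0.032) and LUM (-1.68) within code MS133, whose post-implantation side is 4 cells. There 50 of 85 named values moved by more than their SE, 2 reversed and 33 moved less. Median reads per cell, post minus pre, ran from -1823236 to 718815 when a day was left out, and genes per cell from -2478 to -985.

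The conditions of both rules left no pre-implantation day with 3 cells, so they were run for E16 against E13 alone. Promoter motifs were not run. No paired analysis was possible because the cell numbers only name cells. The 4 settings that leave out cells were chosen after seeing the data. With 2 post-implantation days, and 9 cells at E16, genes read in few cells carry wide errors.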

Other observations

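Some genes known from migrating and germ-line cells were also present in the endoderm cells. Of 8 genes of a primordial germ cell list 7 were tested and 4 were higher after implantation (7.95% over all genes tested). One of them, ARID5B, had entered through the post-implantation days alone. The other members of the list did not rise. NANOS3 was at 0 RPM in every cell of both stages, and the median of DPPA3 was 343 RPM before and 120.3 RPM after implantation. TCL1B was at 10 RPM or more in 21 of 42 cells before and 0 of 25 after it, and DND1 in 37 and 13. None was called lower with all days, but 2 were without E09. CXCR4, a chemokine receptor that also marks definitive endoderm, went from 19.3, 54.7 and 66.3 RPM to 822 and 660 RPM (4.12, SE 0.51, limma adjusted p = 0.0037), PRDM1 rose by 2.10, KIT by 1.81 and ARID5B by 4.26. The differences for CXCR4 and KIT did not pass under the stricter rule or without E13 or E16. In epiblast CXCR4 differed by 0.32 and KIT by -2.07.

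None of 18 proliferation genes was called (limma, median 0.32; edgeR also called none), and MKI67 was at 50 RPM or more in 33 of 42 pre-implantation and 19 of 25 post-implantation cells. Of 25 secretory pathway genes 3 were called, near the 12.4% of all genes, and were lower, with SEC61G, a subunit of the translocon, at 1365, 1040 and 1015 RPM and then 165.4 and 357 RPM (-2.21). Of 4 tested genes of hepatic metabolism GAMT (3.0) and ASS1 (5.08) were higher, beside 7.95% over all genes tested. EGR1, FOS and JUN, immediate early genes that also respond to cell dissociation, were higher after implantation (2.25, 2.41 and 3.06). None of the 3 was called without E08, FOS differed by -0.77 with the median over cells, and the handling of the embryos differed between the stages. Their part in other results was not tested.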
